A study of Mus musculus with 20 samples.

Results

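Colitis-associated cancer was modelled in mice with azoxymethane (AOM), a carcinogen that damages DNA in the colon epithelium, followed by dextran sodium sulfate (DSS), which injures the epithelium and causes colitis. The comparison described here is between AOM/DSS mice that were also given the traditional Chinese formula Pien Tze Huang (PZH), and untreated Control mice. It asks which genes stayed away from their level in normal colon despite PZH. The members are the 5 PZH + AOM/DSS mice (mice 2, 13, 15, 35 and 36) and the 5 Control mice (mice 17, 37, 41, 48 and 50), chosen by the group given in the sample labels, 10 of the 20 mice of the series. All were male C57BL/6 mice, and 1 colon RNA library was made from each. PZH + AOM/DSS mice received 12.5 mg/kg AOM by injection and, 7 days later, 2% DSS in the drinking water for 5 days followed by 2 weeks of plain water, for 4 cycles, with 250 mg/kg/d PZH by gavage over 91 days. Control mice received water by gavage and neither AOM nor DSS. The 5 AOM/DSS mice without PZH and the 5 mice with PZH alone serve below as reference levels. Injury and tumours were induced chemically in wild-type mice, and the label "colon" does not say whether a piece held tumour, so tumour and surrounding tissue cannot be told apart in these libraries.

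Inflamed and regenerating colon is known for a few programmes that recur across models. Immune cells enter the mucosa and release cytokines such as interferon gamma, which switches on antimicrobial and antigen-presenting genes in epithelial and stromal cells. Differentiated colonocytes, which take up short-chain fatty acids, water and salt, give way to immature cells, and genes normally restricted to Paneth cells of the small intestine can appear in the colon. Activated Wnt/β-catenin signalling is the usual driver of tumours in this model.

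The libraries held 15.5 M to 17.5 M fragments (M, mega) in PZH + AOM/DSS mice and 16.1 M to 19.4 M in Control mice, as read from the steps of the deposited values. Values are FPKM (fragments per kilobase of transcript, scaled to the depth of the library), summed per gene. Of 10 colon epithelium markers, 8 were at or above 0.5 FPKM in all 5 mice of each group, although the extraction text of the labels names the abdominal aorta. Among Control mice, 17 and 50 stood apart. Krt5, Krt13 and Krt14, keratins of squamous epithelium such as that of the anal canal, reached 20.9 FPKM or more in both, while the other 3 Control mice had at most 1.27 FPKM of any of them. Over the 3 tested squamous genes the mean log2(FPKM + 1) was 5.43 and 5.19 in Control mice 17 and 50. It was 3.79 in treated mouse 35, 0.825 to 1.91 in the other treated mice and 2.09 to 3.67 in AOM/DSS mice. Muscle markers were lower in the treated group, with a summed level of 886 to 2313 FPKM against 2261 to 5198 FPKM in Control mice. The part of the squamous and muscle differences in the results below was not tested beyond leaving out Control mice 17 and 50 or single mice. In whole tissue, fewer cells of a type and less RNA per cell cannot be told apart.

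Of 15616 genes tested with limma on log2(FPKM + 1), 242 (1.55%) were higher and 136 (0.871%) lower in PZH + AOM/DSS than in Control mice at an adjusted P under 0.05, together 378 (2.42%). At an unadjusted P under 0.05 the number was 3256 (20.9%), and by the criteria of the study (fold above 2, unadjusted P under 0.05) it was 552 (3.53%). For comparison, 3739 of 15812 genes (23.6%) differed between AOM/DSS and Control mice, which share the Control mice with this comparison. The 242 genes that were higher had a median difference of 1.14 (log2) here and of 1.24 in AOM/DSS against Control mice, and the 136 that were lower had medians of -0.97 and -1.01. All of them were chosen by passing the test here, which favours large differences in treated mice. These medians therefore do not measure how much PZH changed. In a direct test of treated against AOM/DSS mice 1 of 15888 genes (0.00629%) passed, 1862 (11.7%) had an unadjusted P under 0.05, and without mouse 35 these numbers were 807 passing and 3471 with an unadjusted P under 0.05. By the criteria of the study 382 genes (2.40%) passed in that test, and 1219 (7.71%) in AOM/DSS against Control mice. The split of the 378 calls depended on the scaling. Median-of-ratios scaling gave 210 higher and 211 lower, so that 49.9% of calls were higher. The median over all genes tested was 0.059 without that scaling.

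The treated mice were far from alike. Counted mouse by mouse, 239 genes in mouse 2, 189 in mouse 13, 572 in mouse 15, 718 in mouse 35 and 292 in mouse 36 lay outside the Control range by more than 2-fold. The AOM/DSS mice had 461 to 814 such genes and the mice with PZH alone 71 to 122, so mice 15 and 35 lay within the AOM/DSS range, and mice 2, 13 and 36 lay between both reference groups. Of the genes above the range in a lone treated mouse, 319 belonged to mouse 35 and 114 to mouse 15, against 25 to 43 for each of the others. The number of genes called fell with most mice that were left out. It was 87 without mouse 15, 152 without mouse 2, 181 without mouse 35, 174 without Control mouse 17, 169 without Control mouse 41, 118 without Control mouse 48 and 114 without Control mouse 50. The remaining omissions left 285 to 536 calls. Without both Control mice that held squamous keratins, a setting chosen after the data were seen, 55 genes were called.

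**Figure D1:**
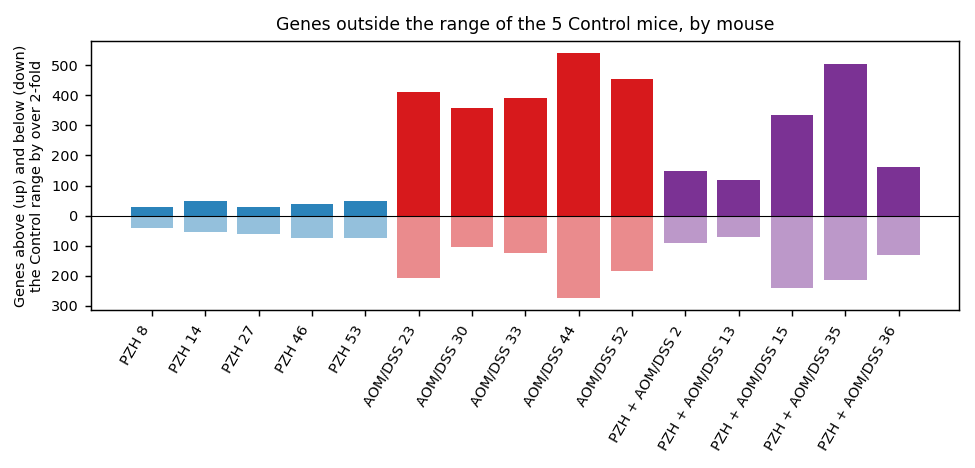
Number of genes, out of 15616, more than 2-fold above the highest (upward bars) or below the lowest (downward, paler bars) Control mouse on the FPKM + 1 scale, for each mouse of the other 3 groups. Mouse 35 had 505 above and 213 below, and mouse 13 had 118 above and 71 below.

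In all 5 treated mice 22 genes exceeded every Control mouse by more than 2-fold, and 18 of them were called. They were Mmp7, Nos2, Wfdc18, Serpina3n, the mast cell proteases Mcpt1 and Mcpt2, the chemokine Cxcl9, Ido1, Pla2g2a, Khdc1a, the Paneth cell defensin Defa24, the interferon-inducible GTPases Tgtp1 and Tgtp2, and the immunoglobulin genes Ighg2c, Ighv1-54, Ighv1-77, Ighv5-17 and Igkv1-135. The 4 not called were Itln1, Defa2, Defa3 and Defa17, in which mouse 35 was far above the others. A lone gene, 2310079G19Rik, was below every Control mouse by more than 2-fold in all 5.

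Nos2 (chr11:78920787-78960254, plus strand, GRCm38), the inducible nitric oxide synthase, was at 2.05, 0.917, 0.586, 0.804 and 0.507 FPKM in Control mice 17, 37, 41, 48 and 50. In PZH + AOM/DSS mice 2, 13, 15, 35 and 36 it was at 13.7, 17.4, 28.4, 36.1 and 44.2 FPKM. Every treated mouse exceeded every Control mouse, and the mean was 28.7 times that of Control (log2 difference 3.80 ± 0.32 SE, adjusted P = 0.00082, limma). The mean of the AOM/DSS mice, 27.4 FPKM, was close to the level in treated mice, and the difference between these groups was -0.05 (unadjusted P = 0.872). Mice 35 and 36, which differed so much in other genes, were the highest here. Khdc1a (chr1:21349641-21352200, plus strand), a gene of the KH domain family, went from 0 to 0.932 FPKM in Control mice to 29.1, 10.2, 24.4, 40.3 and 13.6 FPKM in mice 2, 13, 15, 35 and 36 (log2 difference 4.00 ± 0.34 SE, adjusted P = 0.00082, limma). Both calls held whichever mouse was left out, as they did for 11 of the 20 largest rises and falls.

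Mcpt1 and Mcpt2 encode proteases of mucosal mast cells. Mcpt1 (chr14:56017971-56020384, plus strand) was at 0.622 to 1.03 FPKM in Control mice and at 22.2, 16.2, 157, 100.3 and 20.1 FPKM in mice 2, 13, 15, 35 and 36 (log2 difference 4.53 ± 0.57 SE, adjusted P = 0.0103, limma). Mcpt2 was at 0.0553 to 0.388 FPKM and at 10.2, 7.18, 100.4, 61.6 and 10.8 FPKM in the same order (adjusted P = 0.013). Mice 15 and 35 were the highest for both, and no treated mouse overlapped with Control. The 2 genes are near copies, so the split of reads between them is uncertain. Of 12 mast cell genes, a list added after the values were seen, 7 could be tested and these 2 were called (1.55% of all genes were higher). A gene had to reach 0.5 FPKM in 5 of the 10 mice to be tested. Mcpt2 was below that in every Control mouse and was tested only through the treated mice. Cpa3, the mast cell carboxypeptidase, was at 0 to 0.607 FPKM in Control mice and at 0.846 to 12.6 FPKM in treated mice (adjusted P = 0.088), and Kit, the mast cell growth factor receptor that pacemaker cells of the gut also carry, did not pass (adjusted P = 0.432).

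**Figure D2:**
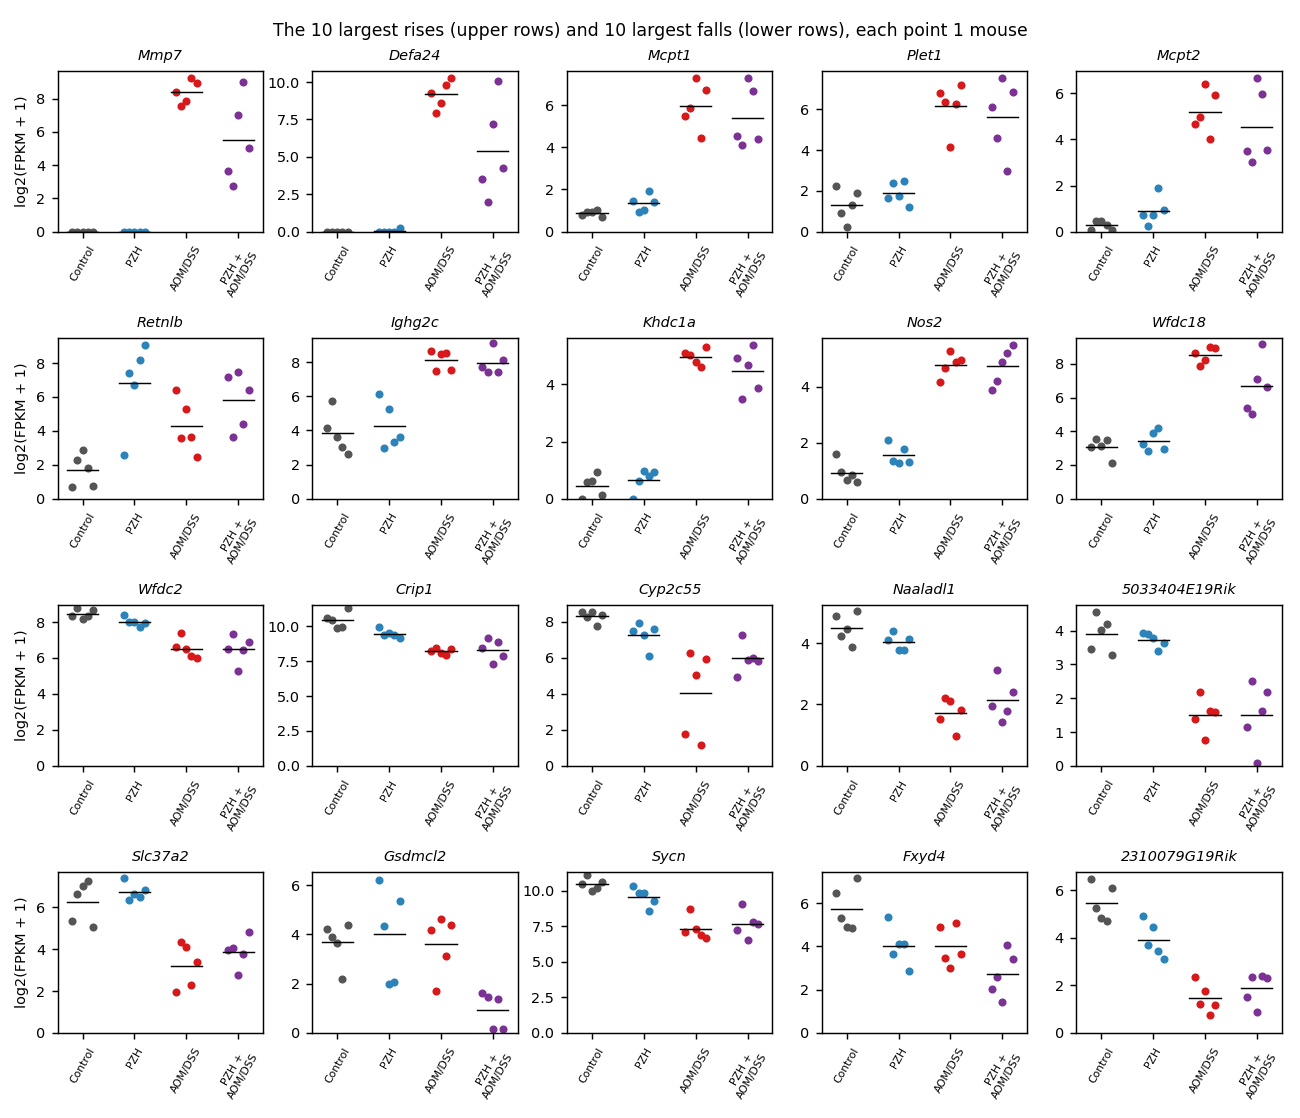
Level in log2(FPKM + 1) of 10 genes that rose most and 10 that fell most from Control to PZH + AOM/DSS, with 1 point per mouse and a line at the mean of each of the 4 groups of 5. For Nos2 all treated points lie at 13.7 FPKM or above, and all Control points at 2.05 FPKM or below.

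Part of the interferon response genes rose. Of 29 tested genes of MHC class II and the interferon response, 8 were higher and 0 lower (1.55% of all genes were higher). Their median difference was 0.58, against 0.059 over all genes. In AOM/DSS against Control mice the median of this list was 0.24. Without mouse 15 the number called was 3, and 0 remained without Control mice 17 and 50, where the median was 0.71. The families of immunity-related GTPases (IRG) and guanylate-binding proteins (GBP), which attack the vacuoles of intracellular microbes, were listed after their values were seen. Of 16 tested, 12 were higher and 0 lower, 11 of the 16 with no overlap between the groups (4.18% of all genes were higher with no overlap), and their median difference was 1.78, against 1.18 in AOM/DSS mice. The number called lay between 4 (without mouse 15) and 12 when 1 mouse was left out, and was 1 without Control mice 17 and 50, where the median was 1.74. It was 8 without Control mouse 17, 7 without mouse 2, 6 without Control mouse 41 or 48 and 5 without Control mouse 50. Gbp2, Gbp3 and Gbp7 are in both lists, so the lists are not separate. Together, 17 of 42 tested members were higher.

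Tgtp1, an IRG gene, was at 2.32, 3.16, 1.27, 1.46 and 0.956 FPKM in Control mice 17, 37, 41, 48 and 50. It was at 20.3, 46.1, 38.0, 14.51 and 9.30 FPKM in mice 2, 13, 15, 35 and 36 (log2 difference 3.07 ± 0.40 SE, adjusted P = 0.0103, limma). Mice 13 and 15 were the highest, and the groups did not overlap. Mouse 13, which had the fewest genes outside the Control range, had the highest Tgtp1 of all 5. Among mice with PZH alone, mouse 8 was at 10.2 FPKM, above treated mouse 36, and the others were at 0.924 to 3.48 FPKM. Igtp, another IRG gene, was at 6.56 to 12.5 FPKM in Control mice and at 47.6, 74.9, 82.5, 22.9 and 21.4 FPKM in treated mice, in the same order as before (adjusted P = 0.0216). Gbp2, the best known GBP gene, was at 19.1, 10.2, 2.41, 10.9 and 3.15 FPKM in Control mice and at 43.2, 98.8, 57.0, 24.9 and 38.1 FPKM in treated mice (adjusted P = 0.0303). For both genes mice 2, 13 and 15 were the highest, mice 35 and 36 the lowest, and the groups did not overlap. The call was kept in 5 of the 10 fits that left out 1 mouse for Igtp (adjusted P up to 0.0585, without Control mouse 50) and also in 5 for Gbp2 (up to 0.0798, without mouse 15). Tgtp1 was called in all 10. Tgtp1 and Tgtp2 are neighbouring near copies, and their split of reads is uncertain.

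Some genes of the response were also higher than in AOM/DSS mice, on the log2 scale and before correction over all genes, which none of them passed. By limma at an unadjusted P under 0.05, 5 of 29 interferon response genes and 5 of 16 IRG and GBP genes were higher, and 0 were lower. Over all genes in that test 11.7% had an unadjusted P under 0.05, in either direction. Examples were Gbp6 (1.35, unadjusted P = 0.0146), Igtp (0.98, unadjusted P = 0.0314) and Irf1, a transcription factor (0.56, unadjusted P = 0.00775). Irf1 was not called against Control mice (adjusted P = 0.132).

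Genes downstream in the response were higher as well. Cxcl9 and Cxcl10 encode chemokines that draw T cells. Cxcl9 was at 0.122 to 2.22 FPKM in Control mice and at 7.12, 13.8, 20.3, 8.71 and 5.65 FPKM in mice 2, 13, 15, 35 and 36 (adjusted P = 0.0103). Cxcl10 was at 0.406 to 3.57 FPKM and at 10.1, 15.1, 44.2, 8.61 and 6.40 FPKM (adjusted P = 0.031). Mouse 15 was the highest for both, and no values overlapped. Ido1, which breaks down tryptophan, had a lowest treated value of 4.22 FPKM against a highest Control value of 1.09 FPKM (adjusted P = 0.00847). With PZH alone, Ido1 was at 4.43 FPKM in mouse 8 and at 0.0742 to 0.423 FPKM in the others. Nlrc5 and Ciita, the master regulators of MHC class I and class II genes, were both higher, by 1.84 ± 0.28 SE (adjusted P = 0.013) and 1.14 ± 0.25 SE (adjusted P = 0.0444), though Ciita was called in 1 of the 10 fits without 1 mouse. Among class II genes themselves, H2-Aa had a difference of 0.19 (adjusted P = 0.706) and the invariant chain Cd74 of 0.51 (adjusted P = 0.352).

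**Figure D3:**
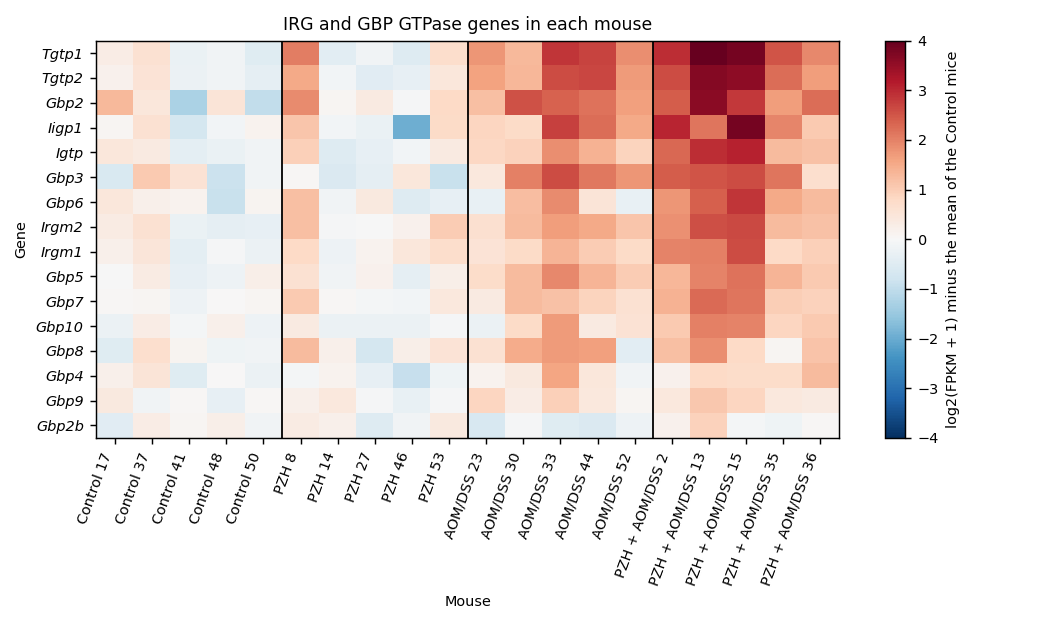
Heat map of the 16 tested IRG and GBP genes, in rows, in all 20 mice, in columns, as the difference in log2(FPKM + 1) from the mean of the 5 Control mice (red is higher). Mice 13 and 15, with Tgtp1 at 46.1 and 38.0 FPKM, have the highest mean level of these genes of all 20 mice.

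The promoters of these genes are shown because genes of 1 family moved together. RefSeq windows of GRCm38.p6, from 250 bases before to 50 bases after the start of a gene, were matched by symbol for 11 of the 17 list members that were higher. The letters searched were GAAA, any 2 bases and GAAA again, the core of the interferon-stimulated response element, on both strands, and TTCNNNGAA, the gamma-activated site, which reads the same on both strands. The first element was in a window of 10 of the 11 genes and TTCNNNGAA in a window of 7, against 3.78% and 8.23% of 10890 tested genes with a window. Among all 30 tested members of the same lists with a window, called or not, 17 (56.7%) held the first element and 11 (36.7%) TTCNNNGAA. A match is a description of letters and not a bound site. The 4 genes with the largest rises that held the first element are given with both motifs in capitals. Tgtp1 lies at chr11:48992197-48992496 (minus strand), Tgtp2 at chr11:49064163-49064462 (minus strand), Gbp2 at chr3:142620413-142620712 (plus strand, where the element reads as its reverse complement) and Igtp at chr11:58199306-58199605 (plus strand).
Tgtp1: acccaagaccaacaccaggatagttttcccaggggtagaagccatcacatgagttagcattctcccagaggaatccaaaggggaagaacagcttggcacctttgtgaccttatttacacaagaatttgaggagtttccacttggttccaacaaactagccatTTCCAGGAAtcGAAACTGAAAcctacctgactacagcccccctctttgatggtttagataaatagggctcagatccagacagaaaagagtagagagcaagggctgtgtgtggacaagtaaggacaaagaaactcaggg
Tgtp2: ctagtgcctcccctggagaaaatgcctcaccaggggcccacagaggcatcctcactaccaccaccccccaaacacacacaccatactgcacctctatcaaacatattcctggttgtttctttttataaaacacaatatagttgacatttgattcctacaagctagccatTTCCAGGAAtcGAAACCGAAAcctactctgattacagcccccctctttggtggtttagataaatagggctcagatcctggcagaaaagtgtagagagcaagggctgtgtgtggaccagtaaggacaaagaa
Gbp2: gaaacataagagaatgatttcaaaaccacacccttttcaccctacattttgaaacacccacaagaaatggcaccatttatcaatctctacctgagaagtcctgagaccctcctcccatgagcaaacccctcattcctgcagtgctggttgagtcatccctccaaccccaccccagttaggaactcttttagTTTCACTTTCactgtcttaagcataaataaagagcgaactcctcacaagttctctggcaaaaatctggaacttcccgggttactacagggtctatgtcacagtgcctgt
Igtp: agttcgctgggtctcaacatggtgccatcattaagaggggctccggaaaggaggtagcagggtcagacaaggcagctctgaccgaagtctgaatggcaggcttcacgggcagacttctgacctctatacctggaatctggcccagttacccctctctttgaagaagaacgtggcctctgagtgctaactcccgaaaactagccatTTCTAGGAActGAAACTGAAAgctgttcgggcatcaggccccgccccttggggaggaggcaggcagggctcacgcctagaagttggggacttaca
In the Tgtp1, Tgtp2 and Igtp windows the gamma-activated site stands directly before the interferon element, with 2 bases between them.

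Lymphocyte genes were higher without exception among the calls. Of 24 tested genes of B cells and plasma cells, 6 were higher and 0 lower, with a median difference of 1.01, and of 20 genes of T and NK cells, 5 were higher and 0 lower, with a median of 0.63 (1.55% of all genes were higher). Without Control mice 17 and 50 the first list had 2 calls and a median of 0.49, and the second 0 calls and a median of 0.53. Igha, the constant region of IgA, was at 1358, 1667, 2181, 1811 and 1028 FPKM in Control mice and at 4634, 4229, 4175, 4240 and 4333 FPKM in treated mice (log2 difference 1.47 ± 0.20 SE, adjusted P = 0.0119, limma). Treated mice differed little in this gene, and mouse 35 was not above the others. Igkc, the kappa light chain, was 2.76 times higher on average (adjusted P = 0.0126). Ighg2c, an IgG constant region that interferon gamma favours in this strain, was at 16.5, 51.5, 11.4, 7.05 and 5.20 FPKM in Control mice and at 206, 169, 550, 172 and 275 FPKM in treated mice (log2 difference 4.12 ± 0.54 SE, adjusted P = 0.0103, limma). Of 163 tested immunoglobulin variable genes, 31 (19.02%) were higher and 0 lower. Variable genes are near copies of each other, and a large clone can raise any of them. Summed over all immunoglobulin genes, Control mice were at 4520 to 8759 FPKM and treated mice at 18687 to 21228 FPKM, within the range of AOM/DSS mice, 16952 to 37786 FPKM. Without mouse 35 the B and plasma cell list kept 3 calls, with a median of 1.06. The number was also 3 without Control mouse 17, 41, 48 or 50 or without mouse 2 or 15.

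Cd4, the coreceptor of helper T cells, was at 1.59 to 2.40 FPKM in Control mice and at 5.38, 6.96, 6.95, 4.21 and 3.95 FPKM in mice 2, 13, 15, 35 and 36 (adjusted P = 0.0153). Icos, Ctla4 and Cd28, receptors that tune T cell activation, and Gzma, a granzyme of cytotoxic cells, were also called. Cd8a, the cytotoxic coreceptor, was at 0.15 to 0.855 FPKM and at 0.508 to 2.01 FPKM, with overlap (adjusted P = 0.142). The T and NK cell list kept 1 call without mouse 2, 15 or 35 or without Control mouse 17, 48 or 50.

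Among 24 genes of macrophages, monocytes and dendritic cells, 4 were higher and 1 lower, with 1 higher without mouse 2 or 15 or Control mouse 41, 48 or 50. Gpnmb, a glycoprotein of lipid-laden macrophages, was at 1.49 to 3.16 FPKM in Control mice and at 5.65 to 10.2 FPKM in treated mice (adjusted P = 0.0103). Itgax, Fcgr1 and Chil3 were the other rises. Cd163, a scavenger receptor of resident macrophages, fell from 0.663 to 2.27 FPKM in Control mice to 0.224 to 0.478 FPKM (adjusted P = 0.0498), a call kept in 1 of the 10 fits without 1 mouse (adjusted P up to 0.118, without mouse 15). Of 12 tested neutrophil genes only Retnlg was called, from 0 to 0.703 FPKM in Control mice to 2.79, 2.22, 6.92, 16.0 and 6.09 FPKM in treated mice (adjusted P = 0.0195), with mouse 35 the highest, and it lost its call without mouse 15 (adjusted P = 0.0536). Of 24 chemokines 3, of 11 oxidases and nitric oxide synthases 2, and of 21 cytokines and receptors 5 were higher, against 1.55% of all genes. Leaving out 1 mouse brought each of these counts down to 1 at the lowest, for cytokines without mouse 15 or Control mouse 48 or 50, for chemokines without these or mouse 2, and for oxidases in 8 of the 10 fits. Without both Control mice 17 and 50, chemokines and cytokines had 0 calls and oxidases 1. Il1b, interleukin 1 beta, was at 2.29, 5.91, 3.66, 0.849 and 0.850 FPKM in Control mice and at 10.5, 8.89, 42.1, 53.7 and 21.8 FPKM in treated mice (log2 difference 2.81 ± 0.54 SE, adjusted P = 0.028, limma). It lost its call without mouse 35 (adjusted P = 0.0512), and the highest adjusted P of the 10 fits was 0.0721, without Control mouse 50. Tnfrsf1b, a receptor of TNF, was at 24.4 to 35.3 FPKM in treated mice against 11.0 to 14.9 FPKM in Control mice (adjusted P = 0.0103). Tnf itself was at 0.68 to 3.41 FPKM and at 1.89 to 8.35 FPKM, with overlap (adjusted P = 0.131), and Il6, at most 0.685 FPKM in any of the 10 mice, was too low to be tested.

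**Figure D4:**
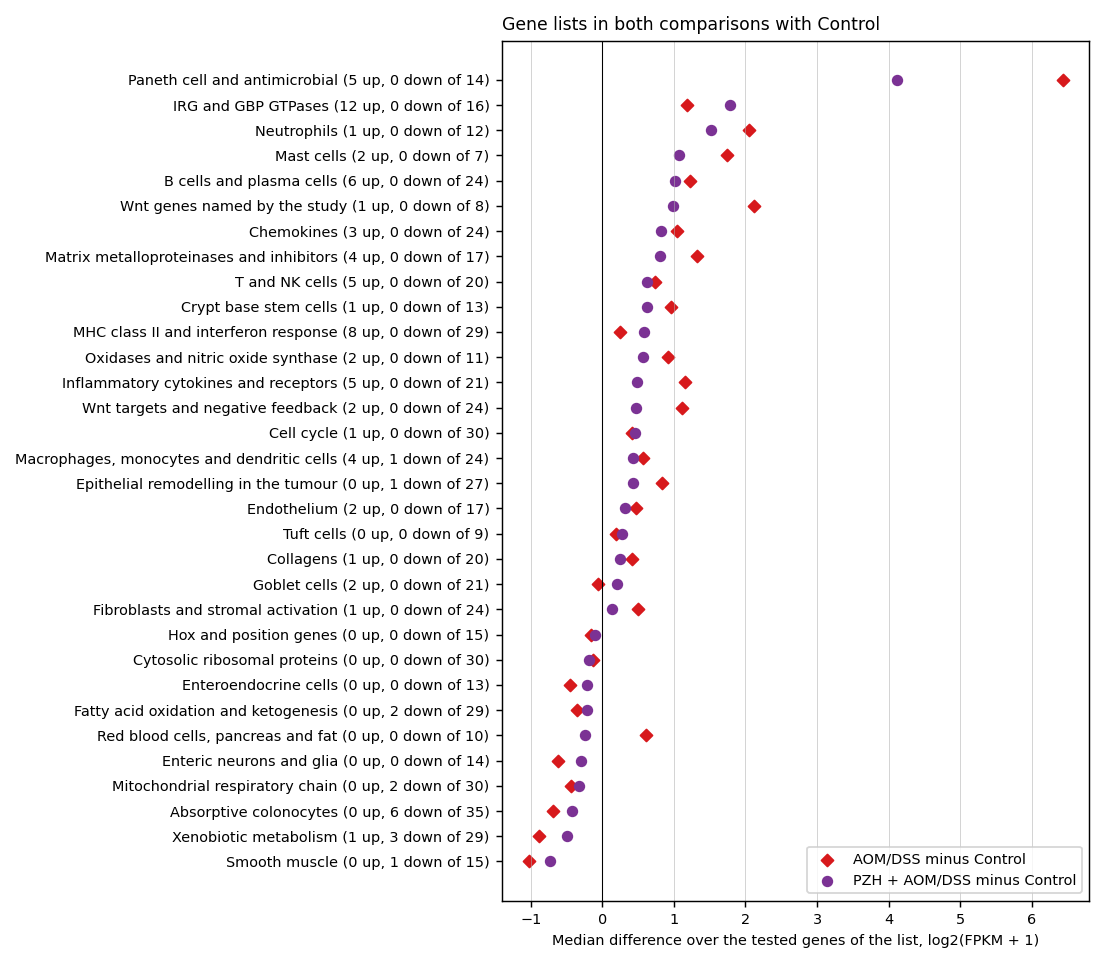
Median difference over the tested genes of each list in PZH + AOM/DSS minus Control (circles) and AOM/DSS minus Control (diamonds), in log2(FPKM + 1), with the number of genes called higher and lower of those tested beside each name. Both comparisons share the 5 Control mice but not always the same tested genes, and lists with fewer than 5 tested genes are not drawn.

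Of 23 Paneth cell and antimicrobial genes, 14 passed the filter on low values, and 5 were higher (1.55% of all genes were higher). A gene listed at 0 in Control mice passes that filter only if all 5 treated mice reach 0.5 FPKM, so the 14 are a choice that favours rises. With no filter 1 of the 23 was called, and their median difference was 3.65. The treated mice differed widely in these genes. Mmp7, a protease of Paneth cells and of Wnt-activated tumour epithelium, was listed at 0 in every Control mouse and at 11.7, 5.64, 127, 504 and 31.6 FPKM in mice 2, 13, 15, 35 and 36 (adjusted P = 0.0218, limma). Defa24, an alpha-defensin, was likewise listed at 0 there and at 10.4, 3.01, 149, 1070 and 17.6 FPKM (adjusted P = 0.0477). Mouse 35 was the highest and mouse 13 the lowest for both. Without mouse 15, neither was called (adjusted P = 0.0573 for Mmp7 and 0.119 for Defa24). Lyz1, the Paneth cell lysozyme, was at 1.66 to 21.5 FPKM in Control mice and at 37.1, 22.1, 599, 1376 and 47.5 FPKM (adjusted P = 0.0839). With the filter, counts of this list lay between 1 and 11 when 1 mouse was left out, and were 1 without Control mouse 48 or 50 or mouse 15. Without both Control mice 17 and 50 the count was 0. Defensin genes are near copies, and their values share that uncertainty.

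Retnlb, a goblet cell protein that acts against bacteria, and Ang4, an antimicrobial ribonuclease, were also called, but both were also above every Control mouse in 4 of the 5 mice that had received PZH alone. Retnlb was at 0.615 to 6.44 FPKM in Control mice and at 142, 11.5, 174, 20.1 and 85.8 FPKM in treated mice (adjusted P = 0.0245). In mice with PZH alone it was at 5.07 to 538 FPKM, with a mean of 222 FPKM, and in AOM/DSS mice the mean was 30.01 FPKM. Ang4 was at 0.517, 3.61, 52.8, 4.11 and 0.745 FPKM in Control mice and at 142, 86.6, 773, 295 and 37.4 FPKM in treated mice, and had a mean of 747 FPKM with PZH alone and of 161 FPKM in AOM/DSS mice (adjusted P = 0.0322). Mouse 36 overlapped with Control mouse 41 in this gene. Pla2g2a, a secreted phospholipase that kills bacteria, was at 1.39 to 10.5 FPKM in Control mice and at 25.6 to 170 FPKM in treated mice (adjusted P = 0.0145). Goblet cell genes as a list had 2 calls in 21, Retnlb and the goblet cell peptide Spink4 (adjusted P = 0.0379), and 0 without mouse 2 or 15 or Control mouse 17, 48 or 50. Over all genes tested 1.55% were higher. The median of the goblet list was 0.20, and -0.17 without Control mice 17 and 50. Muc2, the main mucin, was not called (1.51 ± 0.49 SE, adjusted P = 0.123).

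Plet1, an epithelial surface protein that rises during repair, was at 3.73, 0.891, 0.152, 1.502 and 2.66 FPKM in Control mice and at 69.4, 23.4, 184, 6.73 and 115 FPKM in mice 2, 13, 15, 35 and 36 (log2 difference 4.30 ± 0.77 SE, adjusted P = 0.0229, limma). Here mouse 35 was the lowest of the treated mice, unlike for the defensins, and the groups did not overlap. Wfdc18, a small secreted protease inhibitor, was at 3.28 to 10.5 FPKM in Control mice and at 40.97, 31.8, 138, 583 and 98.7 FPKM (adjusted P = 0.0254), with mouse 35 again the highest. Plet1 was called in 6 and Wfdc18 in 5 of the 10 fits without 1 mouse, with adjusted P up to 0.0545 (without Control mouse 48) and 0.0696 (without Control mouse 50).

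Of the 13 Wnt genes named by the study, 8 were high enough to be tested and 1, Wif1, was called (1.55% of all genes were higher in treated mice). Wif1, a secreted Wnt inhibitor that Wnt signalling itself switches on, was at 0.394 to 0.82 FPKM in Control mice and at 6.48, 2.37, 36.3, 123 and 17.8 FPKM in mice 2, 13, 15, 35 and 36 (log2 difference 3.48 ± 0.78 SE, adjusted P = 0.045, limma). No treated mouse overlapped with Control, and the mean of AOM/DSS mice was 104 FPKM. The call was kept in 1 of the 10 fits without 1 mouse, that without mouse 13 (adjusted P = 0.0155), and was lost without any other (up to 0.116, without mouse 15). All 13 genes were called higher in AOM/DSS against Control mice (16.4% of all genes were), with a median of 2.12. The study listed these genes because they rose in AOM/DSS mice and fell with PZH in the same RNA data. That count was therefore expected from the choice of genes, and the values in treated mice also depend on it. In treated mice the median over the 8 tested genes was 0.98, and 0.42 without mouse 35, so these medians do not cover the same genes. Jun, a transcription factor that responds to many signals, was at 27.1 to 41.8 FPKM in Control mice and at 26.6, 26.1, 35.2, 95.6 and 25.3 FPKM in treated mice. Axin2, the classical Wnt feedback gene, was at 4.57 to 11.7 FPKM and at 16.3, 10.1, 11.9, 55.7 and 11.1 FPKM (adjusted P = 0.202). Nkd1, another feedback inhibitor, was at 2.95 to 6.43 FPKM and at 7.42, 4.46, 21.5, 108 and 9.28 FPKM (adjusted P = 0.189). Mouse 35 was the highest treated mouse in all 3 of these genes, and for Jun the other 4 lay within or below the Control range. Ctnnb1, which encodes β-catenin, had a difference of 0.24 ± 0.14 SE (adjusted P = 0.344).

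Of 24 Wnt targets 2 were called, Wif1 and Mmp7 (0 without mouse 15 or Control mouse 48 or 50), and of 13 genes of crypt base stem cells 1, Msi1. Mmp7, listed at 0 in every Control mouse, was tested only through the treated mice and is also among the Paneth cell genes above. Lgr5, the stem cell receptor, was at 1.19 to 2.79 FPKM in Control mice and at 2.19, 0.726, 7.77, 21.6 and 4.497 FPKM in treated mice (adjusted P = 0.35). Of 30 cell cycle genes 1 was called, Ccne2, a cyclin of the entry into S phase (adjusted P = 0.0446, kept in 2 of the 10 fits without 1 mouse). Over all genes tested 2.42% were called, a share close to that of the cell cycle list. Ccnd1, which encodes cyclin D1, was at 22.4 to 32.8 FPKM in Control mice and at 44.3, 40.0, 63.6, 69.1 and 34.3 FPKM in treated mice. The groups did not overlap, but the difference of 0.81 ± 0.20 SE missed the threshold (adjusted P = 0.0589, limma). Myc was at 9.03 to 20.6 FPKM and at 12.1 to 23.9 FPKM (adjusted P = 0.614), and Pcna, a replication factor, at 49.9 to 115 FPKM and at 69.4 to 137 FPKM (adjusted P = 0.511).

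**Figure D5:**
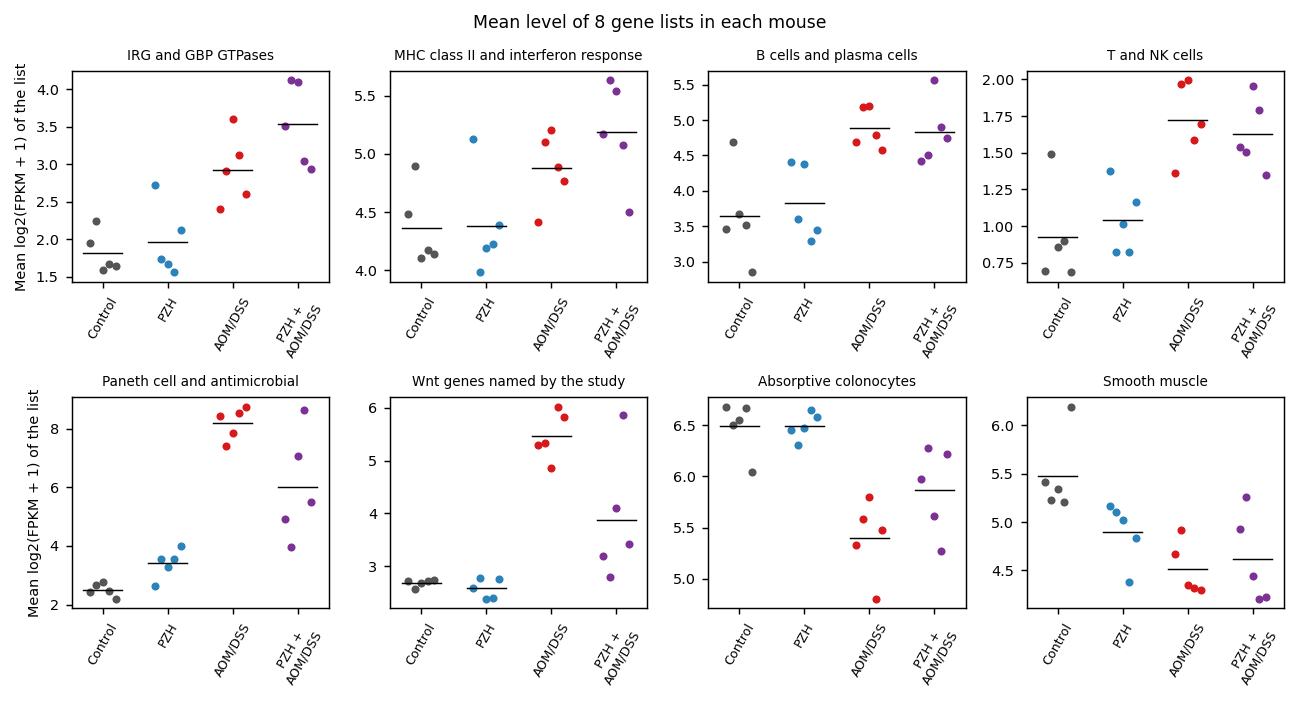
Mean log2(FPKM + 1) of the tested genes of 8 lists in each mouse, with 1 point per mouse and a line at the mean of each of the 4 groups of 5. In the panel of Wnt genes mouse 35 stands at 5.86 among AOM/DSS mice and the other treated mice at 2.79 to 4.11, and in the panel of IRG and GBP genes mice 13 and 15 are the highest of all 20, at 4.12 and 4.10.

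Absorptive colonocyte genes were the list with the most falls. Of 35 tested, 0 were higher and 6 lower (0.871% of all genes were lower). The median difference was -0.43, and in AOM/DSS against Control mice it was -0.69. The list was drawn up with earlier results of these data known, so its count is not independent of them. Without mouse 35 the count was 3 lower and 1 higher with a median of -0.46, and it was also 3 lower without mouse 2 or 15 or Control mouse 37, 41 or 48. Without both Control mice 17 and 50 it was 2 lower, with a median of -0.39. 2310079G19Rik (chr16:88626786-88627666, minus strand) was at 88.0, 36.7, 27.8, 25.5 and 67.6 FPKM in Control mice and at 1.81, 4.05, 0.848, 4.22 and 4.03 FPKM in treated mice (log2 difference -3.59 ± 0.40 SE, adjusted P = 0.00842, limma). In mice with PZH alone this gene was also low, at 29.3, 11.9, 20.8, 9.90 and 7.66 FPKM, against a lowest Control value of 25.5 FPKM. Sycn, a protein of secretory granule membranes, was at 1413, 2156, 1023, 1134 and 1528 FPKM in Control mice and at 151, 526, 92.3, 226 and 201 FPKM in treated mice (log2 difference -2.79 ± 0.39 SE, adjusted P = 0.0126, limma). Among treated mice, mouse 13 was the nearest to Control for Sycn and mouse 15 the farthest for both genes, and no treated value overlapped with Control. Their calls held in all 10 fits without 1 mouse.

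Car2, a carbonic anhydrase of the colonocyte cytosol, was at 598 to 778 FPKM in Control mice and at 303, 512, 224, 192 and 356 FPKM in mice 2, 13, 15, 35 and 36 (adjusted P = 0.0356). Slc16a1, the transporter of butyrate and lactate, was at 86.2 to 111 FPKM and at 65.9, 76.3, 50.2, 36.2 and 60.9 FPKM (adjusted P = 0.0445). Slc37a2, a sugar phosphate exchanger, was at 32.7 to 153 FPKM and at 5.77 to 27.3 FPKM (adjusted P = 0.0316). Mouse 35 was the lowest and mouse 13 the highest treated mouse for the first 2, with no overlap with Control. The 3 calls were kept in 2 (Car2), 1 (Slc16a1) and 4 (Slc37a2) of the 10 fits without 1 mouse, with adjusted P up to 0.0937, 0.113 and 0.0754, each without mouse 15. The chloride exchanger Slc26a3 (-1.14 ± 0.35 SE, adjusted P = 0.108), the water channel Aqp8 (-1.29 ± 0.30 SE, adjusted P = 0.0535) and the carbonic anhydrase Car4 (-0.96 ± 0.43 SE, adjusted P = 0.24) missed the threshold, and Krt20, a keratin of mature surface cells, had a difference of 0.06 (adjusted P = 0.907).

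Cyp2c55, a cytochrome P450 of the colon, was at 374, 305, 364, 211 and 329 FPKM in Control mice and at 29.4, 153, 57.6, 61.5 and 56.1 FPKM in treated mice (log2 difference -2.31 ± 0.35 SE, adjusted P = 0.013, limma). It was called in all 10 fits, and mouse 13 was again the nearest to Control. Fxyd4, a regulator of the sodium pump, was at 86.7, 39.1, 28.8, 27.9 and 140 FPKM in Control mice and at 3.13, 4.97, 1.67, 15.7 and 9.56 FPKM in treated mice (adjusted P = 0.0263). The highest Control mice for Fxyd4 were 17 and 50, the Control mice with squamous keratins, and without them its difference was -2.32 and its adjusted P 0.114. Of 29 tested genes of xenobiotic metabolism 3 were lower, Cyp2c55, Cyp2c68 and the sulfotransferase Sult1a1, and 1 was higher, the receptor Nr1i2 that senses foreign compounds (adjusted P = 0.0356). Acaa2 and Acadm were the calls among 29 genes of fatty acid oxidation, with differences of -0.83 ± 0.14 SE and -0.75 ± 0.14 SE (adjusted P = 0.018 and 0.0254). Of 30 nuclear genes of the respiratory chain 2 were lower, Ndufa1 and Cox5b, and the median was -0.33 (0.871% of all genes were lower). Leaving out 1 mouse brought the respiratory chain to 0 calls in 7 of the 10 fits and xenobiotic metabolism to 1 lower in 7, and fatty acid oxidation to 0 without mouse 15. Without both Control mice 17 and 50 none of these lists kept a call.

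Gsdmcl2, annotated as a transcribed pseudogene of the gasdermin C cluster, was lower in treated mice and not called in AOM/DSS mice. It was at 17.6, 13.98, 11.6, 3.56 and 20.05 FPKM in Control mice and at 2.07, 1.72, 0.112, 1.60 and 0.111 FPKM in treated mice (log2 difference -2.72 ± 0.45 SE, adjusted P = 0.018, limma), while AOM/DSS mice had a mean of 14.2 FPKM. Its difference between AOM/DSS and Control mice was -0.06 (adjusted P = 0.953), and against AOM/DSS mice it was lower by 2.66 on the log2 scale (unadjusted P = 0.000621), which did not pass correction. Copies of this cluster share reads. Igfbp2, an IGF-binding protein chosen after its values were seen, was at 21.5 to 41.03 FPKM in Control mice, at 4.83 to 11.7 FPKM in treated mice (adjusted P = 0.0103) and at a mean of 23.9 FPKM in AOM/DSS mice.

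Among genes of the tissue around the epithelium, a few were called. Of 17 matrix metalloproteinases and inhibitors 4 were higher, namely Mmp7, Mmp3, Mmp28 and the inhibitor Timp1 (1.46 ± 0.25 SE, adjusted P = 0.0205). Mmp7 was tested only through the treated mice, and it is counted among the Paneth cell genes and Wnt targets as well. Of 20 collagens 1 (Col6a3), of 24 fibroblast genes 1 (Spon1) and of 17 endothelial genes 2 (the adhesion molecules Vcam1 and Icam1) were higher, against 1.55% of all genes. When 1 mouse was left out, collagens had 0 calls in 8 of the 10 fits and endothelial genes in 5, fibroblast genes had 0 without mouse 15, and metalloproteinases had 1 without mouse 15 or Control mouse 48. Without both Control mice 17 and 50 none of these lists kept a call. Of 15 smooth muscle genes 1 was lower, Actg2, the actin of gut muscle, which was at 456 to 996 FPKM in Control mice and at 152 to 437 FPKM in treated mice (adjusted P = 0.0373), a call kept in 1 of the 10 fits without 1 mouse. A further 10 muscle genes were lower at an unadjusted P under 0.05, and the median of the list was -0.74. Over all genes tested 0.871% were called lower. Mice with PZH alone were low in muscle genes too. The mean log2(FPKM + 1) of the list was 4.38 to 5.17 in them, 4.21 to 5.26 in treated mice and 5.21 to 6.19 in Control mice. Muscle markers were thus lower in the group in which the genes above fell, and their part in those falls was not tested. Of 27 genes linked to epithelial remodelling in tumours, Wfdc2, a secreted protease inhibitor of epithelia, was the 1 called, at 284 to 437 FPKM in Control mice and 37.2 to 159 FPKM in treated mice (adjusted P = 0.017). No gene was called among those of enteric neurons and glia, enteroendocrine cells, tuft cells, squamous epithelium, Hox and position genes, cytosolic ribosomal proteins, or red blood cells, pancreas and fat. Among these limma gave an unadjusted P under 0.05 for 4, 3, 2, 0, 4, 2 and 0 genes in that order.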

How the data were processed

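RNA was sequenced from the colon of 20 mice. The deposited values are FPKM per transcript, which the authors made by aligning reads to mm10 and assembling transcripts. The labels name depletion of ribosomal RNA. Here the FPKM of Ensembl transcripts were summed per gene (GENCODE M21 names, GRCm38), and 22252 assembled transcripts, holding 12.1 to 14.8% of the FPKM over the 20 mice, entered no gene. Genes were tested with limma 3.58.1 (R 4.3.3) on log2(FPKM + 1), with Benjamini-Hochberg adjustment and an intensity trend, on genes that reached 0.5 FPKM in 5 or more of the 10 mice. A fold on this scale understates the change of low genes. The tests were tried on simulated data. Depth was read from the steps of the FPKM. FPKM are no counts, so no count test was run. Labels do not say that mice were housed or sequenced in batches, and P values measure the spread between mice. The members and gene lists were chosen with earlier results of these data known, and 2 lists (IRG and GBP GTPases, mast cells) and Igfbp2 were added after the values were seen. Named genes are the 10 largest rises and 10 largest falls among called genes whose groups did not overlap and whose higher mean was 5 FPKM or more, the Wnt, cytokine and cycle genes that the study names, and the members of the lists. Alternatives were another pseudocount, other filters, scaling, array weights, all groups in 1 fit, single transcripts and leaving out mice.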

Additional observations from a re-analysis of the deposited data

Results flagged for a closer look

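Of 78 sets of 5 values examined for a mouse far from the other 4 of its group, 4 held 1, and 3.9 are expected by chance. Jun was at 95.6 FPKM and Axin2 at 55.7 FPKM in PZH + AOM/DSS mouse 35. Notum, a secreted Wnt inhibitor, was at 0.0364 FPKM in Control mouse 50 and listed at 0 in the other 4 Control mice. Il6 was at 0.117 FPKM in Control mouse 37. The last 2 values are too low to be tested.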

How the results depend on the processing

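No paired analysis was possible because the mouse numbers are not shared between groups. Of the alternatives run on the named genes, 471 values kept their direction and side of the threshold, 82 kept the direction but lost the call, 2 gained it and 3 reversed. The reversed values were Jun, at -0.054 with array weights and -0.20 without mouse 35 (-0.20 to 0.27 when 1 mouse was left out), and Myc, at -0.094 without Control mice 17 and 50. The cause was not tested.

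For PZH + AOM/DSS against Control, the 378 calls became 98 with no filter, 1503 with all 20 mice in 1 fit, 168 on single transcripts and 55 without Control mice 17 and 50. Those higher became 68, 923, 102 and 42, and those lower 30, 580, 66 and 13, with 211 lower under median-of-ratios scaling. When 1 mouse was left out the calls lay between 87 and 536, those higher between 60 and 323 and those lower between 27 and 213. By the criteria of the study (fold above 2, unadjusted P under 0.05) the number was 552, with 1037 at a pseudocount of 0.1 and 1484 on transcripts, and 485 to 665 when 1 mouse was left out. For PZH + AOM/DSS against AOM/DSS, limma called 0 genes with no filter (2987 at an unadjusted P under 0.05), 2 with array weights, 89 with all 20 mice and 9 on transcripts, and 1 to 807 when 1 mouse was left out. By the criteria of the study there were 382, with 695 at a pseudocount of 0.1, 1058 on transcripts and 279 to 622 when 1 mouse was left out. For AOM/DSS against Control they were 1219, 2049 and 2551, and the calls lay between 2789 and 3588, or 1150 and 1345 by those criteria, when 1 mouse was left out. Depth limits genes near 0.5 FPKM the most.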

Other observations

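Eef1a1, a translation elongation factor, was the 1 gene that passed in the direct test of treated against AOM/DSS mice. It was at 1443, 1063, 1126, 1055 and 1071 FPKM in the 5 AOM/DSS mice, with a difference of 1.37 ± 0.12 SE between treated and AOM/DSS mice (log2, adjusted P = 0.00481, limma). In the comparison with Control it was at 3083, 3108, 2694, 2958 and 2994 FPKM in mice 2, 13, 15, 35 and 36 and at 2460, 1187, 1358, 1321 and 1211 FPKM in Control mice 17, 37, 41, 48 and 50 (log2 difference to Control 1.03 ± 0.21 SE, adjusted P = 0.0316, limma). The call against Control was kept in 3 of the 10 fits without 1 mouse, with adjusted P = 0.0577 without mouse 35 and up to 0.0819 without Control mouse 50. A few genes were near 0 in some mice and high in others of the same group. Pitpnb, a lipid transfer protein, was at 0.532 FPKM in mouse 2 and at 26.8 to 32.2 FPKM in the other 4 treated mice, and Gm22133, annotated as a miRNA, was at 1431 FPKM in mouse 35 and at 0.263 to 0.296 FPKM in the other 4. The part in these values of how fragments were split between annotated and assembled transcripts was not tested.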
